A study of Mus musculus with 6 samples.

Results

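Integrins are the receptors through which cells hold on to the extracellular matrix, and laminins are the trimeric glycoproteins that build the basement membrane those receptors bind. The genes described here are the integrin alpha subunits (*Itga*), the integrin beta subunits (*Itgb*), the laminin alpha, beta and gamma chains (*Lama*, *Lamb* and *Lamc*), and 4 genes that tie the laminin network together or to the cell (*Nid1*, *Nid2*, *Hspg2* and *Dag1*). They were picked out by symbol, by a rule that uses no measured value, and gave 41 rows with 40 symbols among the 18537 genes of the table.

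They were measured in luminal progenitor cells of the mouse mammary gland, sorted as Lin-CD24loCD29+CD61+ from adult nulliparous females with no treatment. The groups were *Robo1+/+* (replicates gh03, gh09 and gh15) and *Robo1−/−* (replicates gh06, gh12 and gh18), littermates from crosses of heterozygotes, with n = 3 libraries per genotype and the cells of 2 animals pooled in each. *Robo1* encodes a receptor for SLIT proteins, and the *Robo1−/−* mice carried the germline allele *Robo1* tm1Matl on both chromosomes, so it was missing from every tissue and not from the sorted cells alone. Poly(A)+ RNA was sequenced, and the reads counted in the genes of the table came to between 9727191 and 17433868 per library. The values are normalized reads, that is, reads divided by a single factor per library. *Robo1* itself gave 289, 574 and 541 normalized reads in the *Robo1+/+* libraries and 130.1, 214 and 177 in the *Robo1−/−* libraries, so the genotypes did not overlap and reads from the locus remained.

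In the mammary gland, an inner layer of luminal cells and an outer layer of contractile basal (myoepithelial) cells are wrapped by a basement membrane. An integrin is a pair of 1 alpha and 1 beta subunit. The alpha subunit largely sets the ligand: *Itga3*, *Itga6* and *Itga7* bind laminin, *Itga1*, *Itga2*, *Itga10* and *Itga11* bind collagen, and *Itgav*, *Itga5*, *Itga8* and *Itga2b* bind proteins with an RGD sequence such as fibronectin. *Itgb1* is shared by most of these alpha subunits, whereas *Itgb4* pairs with *Itga6* only and anchors keratin filaments at hemidesmosomes. CD29 and CD61, the surface antigens of the sort, are the products of *Itgb1* and *Itgb3*, so the gate itself required those 2 proteins.

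Replicate gh18 stood apart, and it did so with the base composition of the transcripts. The 4 stretches printed here show the 2 ends of that range. Each is 90 bases of coding sequence on build NCBI37 (mm9), read 5′ to 3′ on the strand of the gene, with G and C in capitals. Each was taken as the coding window of that length with a G+C share closest to that of its whole transcript. Those of *Lama5* (chr2:179911255-179911344, minus strand) and *Itgb4* (chr11:115840989-115841078, plus strand) both hold 60.0% G+C, and those of *Itgb1* (chr8:131234161-131234250, plus strand) and *Itgav* (chr2:83616525-83616614, plus strand) hold 44.4% and 43.3%.

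Lama5: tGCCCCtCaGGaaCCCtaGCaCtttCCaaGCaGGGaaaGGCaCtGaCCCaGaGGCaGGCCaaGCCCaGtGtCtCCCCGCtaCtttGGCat
Itgb4: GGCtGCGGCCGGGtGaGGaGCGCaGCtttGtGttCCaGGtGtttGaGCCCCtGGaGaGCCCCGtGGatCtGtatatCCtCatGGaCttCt
Itgb1: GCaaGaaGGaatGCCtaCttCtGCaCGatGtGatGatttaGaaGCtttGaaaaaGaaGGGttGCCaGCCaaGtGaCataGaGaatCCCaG
Itgav: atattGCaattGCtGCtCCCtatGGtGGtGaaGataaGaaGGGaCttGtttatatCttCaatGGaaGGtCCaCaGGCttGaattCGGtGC

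In replicate gh18, *Lama5* was at 7.12% and *Itgb4* at 9.35% of the mean of the other 5 libraries, while *Itgb1* was at 153% and *Itgav* at 202%. The second row of 1 symbol was left out here, so 30 of the 31 tested members are described. Among these 30, the 10 with at least 56% G+C were lowest in gh18 of all 6 libraries, at 7.12% to 37.4% of the mean of the others. They were *Hspg2*, *Itga2b*, *Itgb4*, *Itga3*, *Lamb3*, *Itga5*, *Lama5*, *Lamb2*, *Itga7* and *Itgb5*. Of the 6 with under 46% G+C, gh18 was the highest library for 5 and lay at 92.3% of the mean of the others for *Itga8*. Across these 30 members, the log2 deviation of gh18 from the other libraries fell with G+C (Spearman's rho = -0.91, Pearson's r = -0.88), and over 12542 tested genes rho was -0.81. In the other 5 libraries rho over the members lay between 0.12 and 0.65. Each of these was set against a mean that includes gh18, so they are not independent of its trend. These values share 1 library and 1 base composition per gene and are given as a description. The part of this trend in each genotype difference cannot be told apart from the genotype in gh18 alone, so each difference is given below with all 6 libraries, without gh18 and after a correction for G+C.

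**Figure D1:**
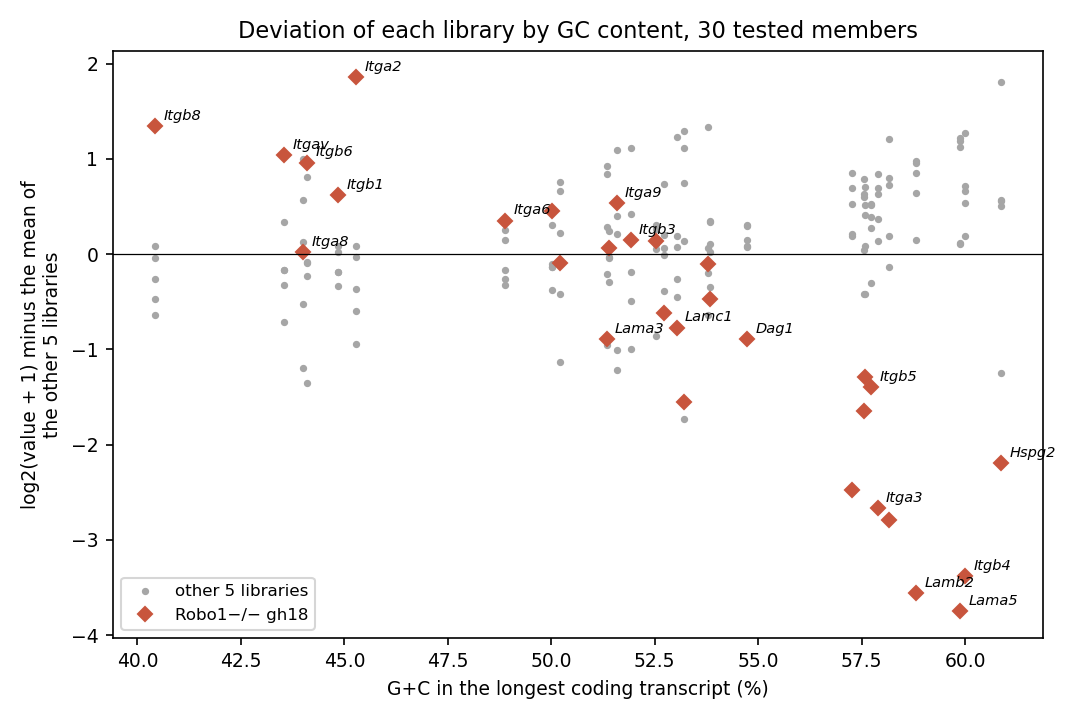
Log2 deviation of each library from the mean of the other 5 (y axis) against the percentage of G+C in the longest coding transcript (x axis) for 30 tested members; red diamonds are replicate gh18 and grey points the other 5 libraries. The red points run from above 0 at low G+C to -3.75 for *Lama5*, and all 10 members with at least 56% G+C lie below every grey point of the same gene.

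The members covered a wide range of levels, with the laminin receptors at the top. Per kilobase of transcript, *Itgb1* was the highest in *Robo1+/+* cells at 1986 ± 141 normalized reads (SD, n = 3), followed by *Itga6* at 1329 ± 216 and *Dag1* at 954 ± 48.6. *Dag1* encodes dystroglycan, a laminin receptor outside the integrin family. *Lama5* (779 ± 243), *Itgav* (631 ± 187), *Itgb5* (479 ± 95.6), *Itga3* (400.0 ± 80.9), *Lamc1* (348 ± 138), *Lamb2* (348 ± 82.7), *Itgb4* (338 ± 105) and *Itgb6* (219.9 ± 126) were also among the 12 highest. In the order of those 12, only *Itgb1* and *Itga6*, and *Itga6* and *Dag1*, were neighbours whose *Robo1+/+* libraries did not overlap. The other 9 of 11 neighbouring pairs overlapped and cannot be ranked against each other with 3 libraries.

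**Figure D2:**
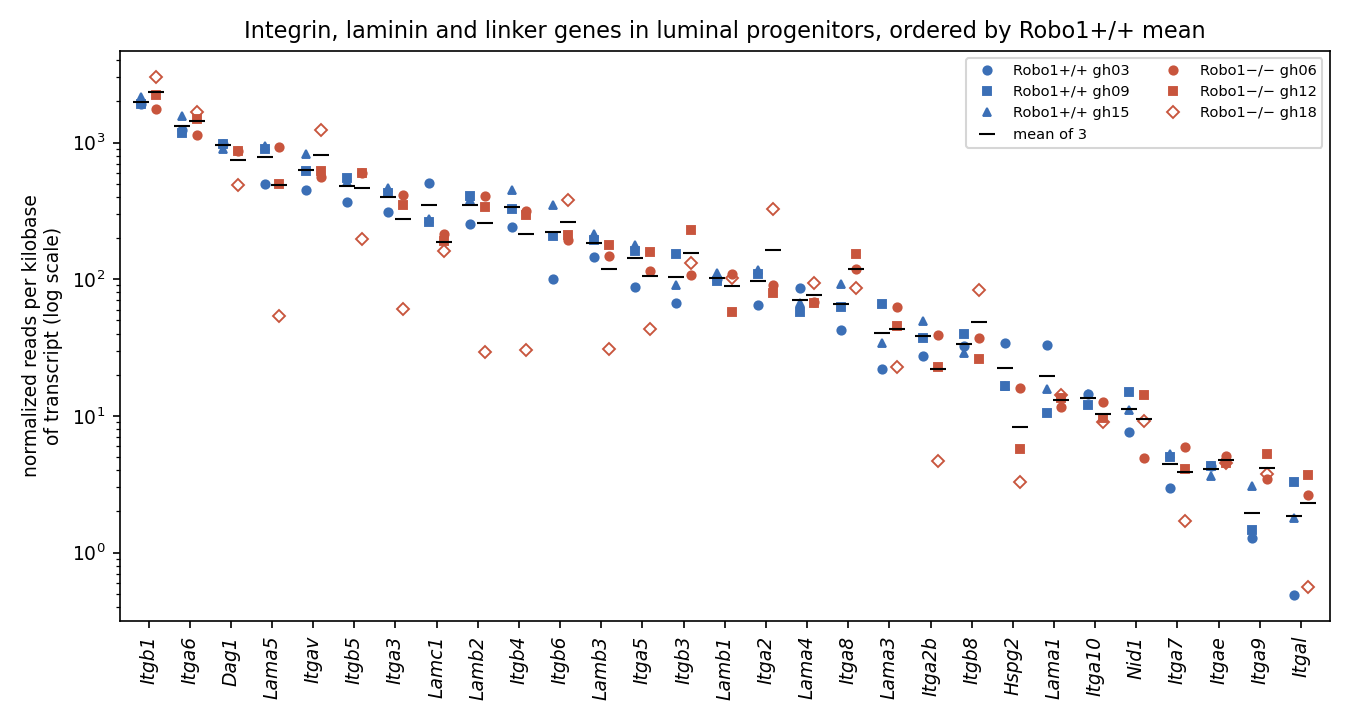
Normalized reads per kilobase of transcript (log scale) in each of the 6 libraries for 29 tested members, ordered by the mean of the *Robo1+/+* libraries (horizontal bars are means of 3, blue *Robo1+/+*, red *Robo1−/−*). *Itgb1* leads at 1986 in *Robo1+/+*, and the open diamonds of replicate gh18 lie far below the other libraries for *Lama5*, *Itga3*, *Lamb2*, *Itgb4*, *Lamb3* and *Itga2b*.

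A laminin receptor subunit led the alpha chains in every library. *Itga6* took between 44.8% and 55.1% of the summed alpha subunit level per kilobase, and *Itgav* between 20.1% and 36.0%. Among the beta subunits *Itgb1* took between 58.3% and 78.6%. *Itgb4*, the hemidesmosomal partner of *Itga6*, took 8.84%, 10.2% and 12.5% of the beta subunits in the *Robo1+/+* libraries and 10.5%, 8.15% and 0.786% in the *Robo1−/−* libraries, so gh18 lay far below the other 5. Of the laminin chains, *Lama5* took 23.0% to 35.7% in the 5 libraries other than gh18 and 5.56% in gh18.

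The RNA levels of members were also set against each other as ratios within a library. *Lama5* joins *Lamc1*, the gamma chain of most laminins. Per kilobase, the ratio of *Lama5* to *Lamc1* was 0.986, 3.43 and 3.40 in the *Robo1+/+* libraries and 4.32, 2.60 and 0.335 in the *Robo1−/−* libraries, so gh03 and gh18 lay below the other 4. The ratio of *Lamb1* to *Lamb2*, the beta chains that can take the same place in a trimer, was 0.393, 0.237 and 0.294 against 0.270, 0.170 and 3.44, with gh18 alone above 1. None of the 7 ratios taken separated the genotypes, and the smallest exact two-sided permutation p among them was 0.2, where 3 against 3 libraries cannot go below 0.1.

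Of the 41 rows, 31 passed the filter on low values and were tested. The 10 that did not pass included subunits known from white blood cells, namely *Itgb2*, *Itgb7*, *Itgam*, *Itgax* and *Itga4*, whose reads over all 6 libraries came to 21, 15, 20, 2 and 2. *Itga1* (22 reads in all), *Itga11* (17), *Lama2* (43), *Nid2* (9) and *Lamc3* (5) were the others. A count of 3 reads in a library was the floor for detection at these depths. The filter for testing asked for more, and *Lama2*, with 4 to 12 reads per library, did not pass it. No fold change is given for these 10 genes. *Itgae* and *Itgal*, which pair with *Itgb7* and *Itgb2* on lymphocytes, were tested at levels of only 14.1 to 19.6 and 2.54 to 19.2 normalized reads. *Ptprc* (CD45), the defining marker of white blood cells and a target of the depletion before the sort, had at most 1 read in any library. Of the 7 leukocyte markers with a row, 2 were tested, *Cd68* at 65.7 to 134 and *Csf1r* at 8.24 to 20.4 normalized reads, and both overlapped between genotypes.

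The genotypes were then compared for each member. None of the 31 passed an adjusted p of 0.05 (limma with Benjamini-Hochberg adjustment over 13692 genes), and neither did any other gene tested (0.0%), while 231 genes passed an unadjusted p of 0.05. At an adjusted p of 0.05, DESeq2 called 1 gene, not a member, and edgeR called none. At an unadjusted p under 0.05, 2 members were lower in *Robo1−/−* (*Lamc1* and *Hspg2*) against 0.92% of all tested genes, and 2 were higher (*Itga8* and *Itga9*) against 0.767%. The values of the genotypes did not overlap for 3 members that were lower in *Robo1−/−* (*Lamc1*, *Hspg2* and *Dag1*), against 4.58% of all tested genes, and for 2 that were higher (*Itga9* and *Itgae*), against 4.83%. Without gh18, *Itga8* was the 1 member past an unadjusted p of 0.05, against 4.23% of all tested genes. After the G+C correction there were 2, *Itga9* and *Itgb5*, both higher in *Robo1−/−*, against 1.57%. In bulk samples, fewer cells of a type and less RNA per cell cannot be told apart, and this holds for each difference below.

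The median log2 fold change (*Robo1−/−* over *Robo1+/+*) of the 31 tested members was -0.28, beside 0.00 over all tested genes. It was -0.05 without gh18 and -0.02 after the G+C correction. With all libraries 18 members had a log2 fold change below 0 and 13 above it. Without gh18 the split was 21 and 10, and 17 of the 31 lay within 0.2 of 0. Over all 13692 tested genes the split was 6823 and 6869 with all libraries, and 6771 and 6921 without gh18. Of these genes, 7420 lay within 0.2 of 0 without gh18, a share close to that of the members. The members are described by their role below.

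**Figure D3:**
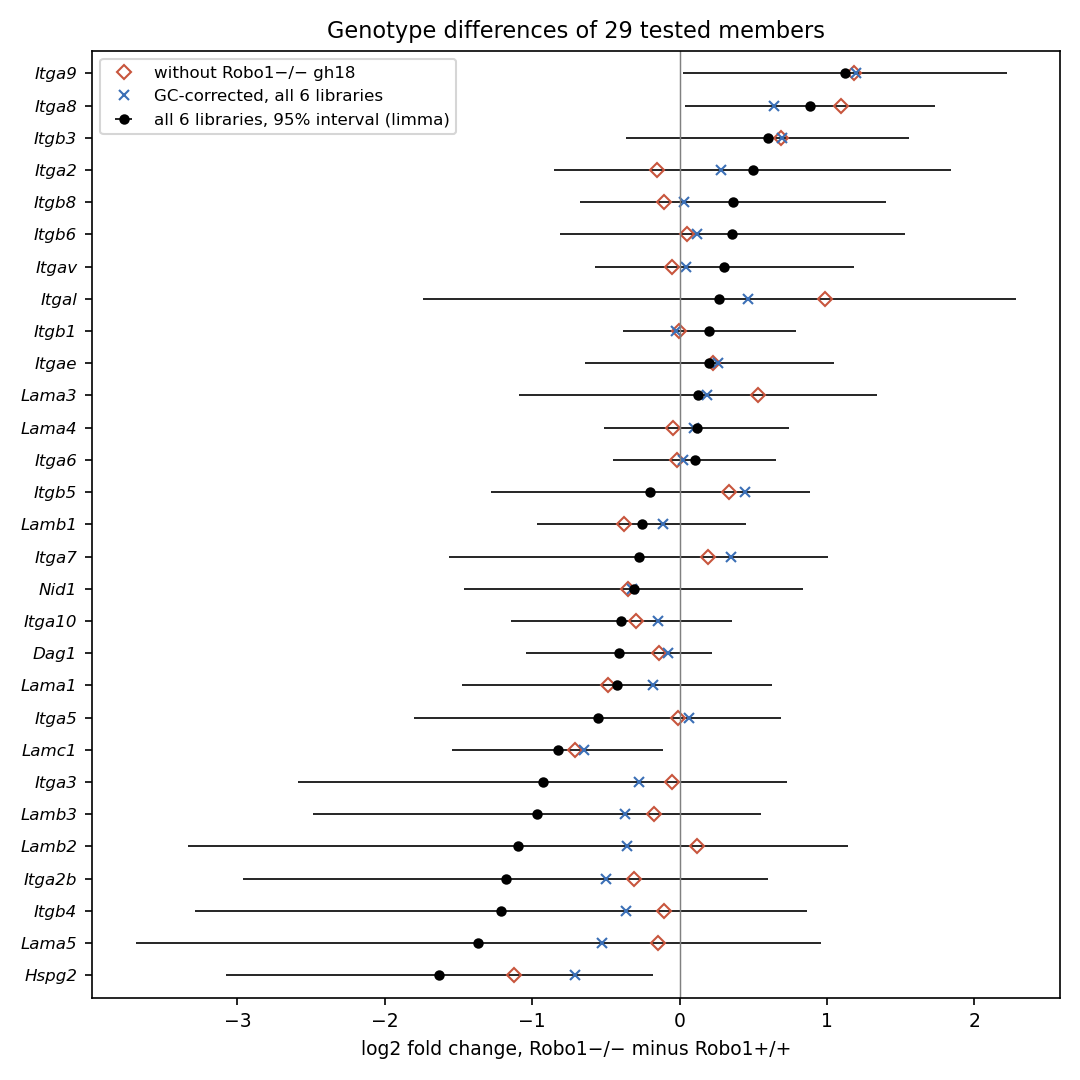
Log2 fold change of 29 of the 31 tested members, *Robo1−/−* minus *Robo1+/+* on the log2(value + 1) scale (x axis), ordered by the value over all 6 libraries (black points with 95% intervals from limma); red diamonds leave out gh18 and blue crosses are corrected for G+C. For *Lama5*, *Itgb4*, *Lamb2* and *Itga3* the black points lie at -0.93 or below while the red diamonds lie within 0.2 of 0, and *Hspg2* and *Lamc1* stay below 0 on all 3 measures.

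Among the laminin chains named here, *Lamc1* (chr1:155066052-155179916, minus strand) was the one that separated the genotypes. It had 3866, 1983 and 2116 normalized reads in the *Robo1+/+* libraries and 1634, 1462 and 1217 in the *Robo1−/−* libraries. Every *Robo1−/−* library was below every *Robo1+/+* library, and gh03 was far above the other 5. The log2 fold change was -0.83 ± 0.30 (SE) with an adjusted p of 0.86 by limma (unadjusted 0.029), and the exact two-sided permutation p was 0.1, the smallest possible. It was -0.71 without gh18 and -0.65 after the G+C correction. Without gh03 it was -0.52 and without gh12 -0.84, and in each of these 4 cases it no longer passed an unadjusted p of 0.05.

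*Lama5* encodes the alpha chain of the laminins most widespread in adult epithelial basement membranes. It had 5696, 10168 and 10765 normalized reads in the *Robo1+/+* libraries and 10547, 5675 and 609.9 in the *Robo1−/−* libraries. The genotypes overlapped, and gh18 lay far below the other 5 libraries. The log2 fold change of -1.36 ± 0.98 (adjusted p = 0.86, limma) had a 95% interval from -3.69 to 0.96, and became -0.14 without gh18 and -0.53 after the correction. Without gh06, the *Robo1−/−* library with the most *Lama5*, it was -2.20, past an unadjusted p of 0.05 by limma. In that fit 6.42% of all tested genes passed. *Lamb2*, a beta chain that joins *Lama5*, behaved alike, with 1426, 2300.3 and 2139.8 against 2273, 1893 and 166 normalized reads. Its log2 fold change was -1.10 ± 0.95 with all libraries and 0.12 without gh18, so its sign depended on that library.

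*Lama3* and *Lamb3*, chains of the laminin that hemidesmosomes bind, overlapped between genotypes. *Lamb3* had 595, 797 and 873 against 602, 725 and 127, and its log2 fold change moved from -0.96 ± 0.64 to -0.17 without gh18. *Lama3* had 229, 679 and 353 normalized reads against 645, 469 and 236, with a log2 fold change of 0.13 ± 0.51, and 0.53 without gh18. Over the 10 tested rows of laminin chains the median log2 fold change was -0.56 with all libraries, -0.14 without gh18 and -0.27 after the correction. *Lamb1* (-0.26), *Lama4* (0.12) and *Lama1* (-0.43) were chains of which none separated the genotypes. In the same order they were -0.38, -0.041 and -0.49 without gh18, and -0.12, 0.096 and -0.18 after the correction.

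*Hspg2* (chr4:137024634-137126545, plus strand) encodes perlecan, a heparan sulfate proteoglycan that crosslinks laminin and type IV collagen. It had 481, 234 and 234 normalized reads in the *Robo1+/+* libraries and 227, 81.5 and 46.7 in the *Robo1−/−* libraries. The genotypes did not overlap, but gh06 lay just under 2 of the *Robo1+/+* libraries. Its log2 fold change was -1.63 ± 0.61 with an adjusted p of 0.86 by limma (unadjusted 0.032), and the exact two-sided permutation p was 0.1. *Hspg2* had the highest G+C of all members, 60.9%. The difference was -1.12 without gh18 and -0.71 after the correction, and -1.29 without gh03 and -1.52 without gh12, each no longer past an unadjusted p of 0.05. Neither was that of edgeR on all 6 libraries, -1.42. At 22.3 ± 10.1 normalized reads per kilobase in *Robo1+/+*, *Hspg2* was a low member.

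*Dag1* also separated the genotypes, by a smaller margin. It had 4329.6, 4339 and 3962 normalized reads in *Robo1+/+* and 3826, 3799 and 2176 in *Robo1−/−*. This gave a log2 fold change of -0.41 ± 0.27 (adjusted p = 0.86, limma; 95% interval -1.04 to 0.22). Without gh18 it was -0.14 and after the correction -0.08. *Nid1*, nidogen, which bridges laminin and type IV collagen, had 45.8, 90.9 and 66.6 against 29.9, 86.1 and 55.5 normalized reads, so the genotypes overlapped. Its log2 fold change was -0.31 ± 0.49, -0.35 without gh18 and -0.32 after the correction. The median of the 3 tested linkers was -0.41, and -0.35 without gh18.

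Basal cell markers were also measured beside these members. The summed level of 11 basal and myoepithelial markers, all of which were tested, was 2564, 910.0 and 1574 normalized reads in the *Robo1+/+* libraries and 1884, 1090.1 and 1208 in the *Robo1−/−* libraries. It was highest in gh03, the library with the most *Lamc1*, *Hspg2* and *Lama1*, and the order of the other libraries differed between the sum and each of these members. *Lama1*, an alpha chain, had 313, 99.5 and 150.1 normalized reads in *Robo1+/+* and 110.5, 128 and 136 in *Robo1−/−*. *Krt14*, a basal keratin, had 407, 84.7 and 296 against 245, 74.2 and 68.6. Laminins and perlecan are known products of basal cells, and the part of such cells in the differences was not tested. None of the 11 markers passed an unadjusted p of 0.05. Their log2 fold changes were below 0 for 5 and above it for 6 (median 0.13), and without gh18 for 4 and 7 (median 0.10). The lowest were those of the keratins *Krt5*, *Krt17* and *Krt14*, -1.12 ± 0.52, -1.04 ± 0.59 and -1.0 ± 0.73. In gh18 these keratins were at 26.3%, 29.3% and 31.0% of the mean of the other 5 libraries. Their log2 fold changes were -0.64, -0.64 and -0.68 without gh18, and -0.57, -0.30 and -0.41 after the correction.

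**Figure D4:**
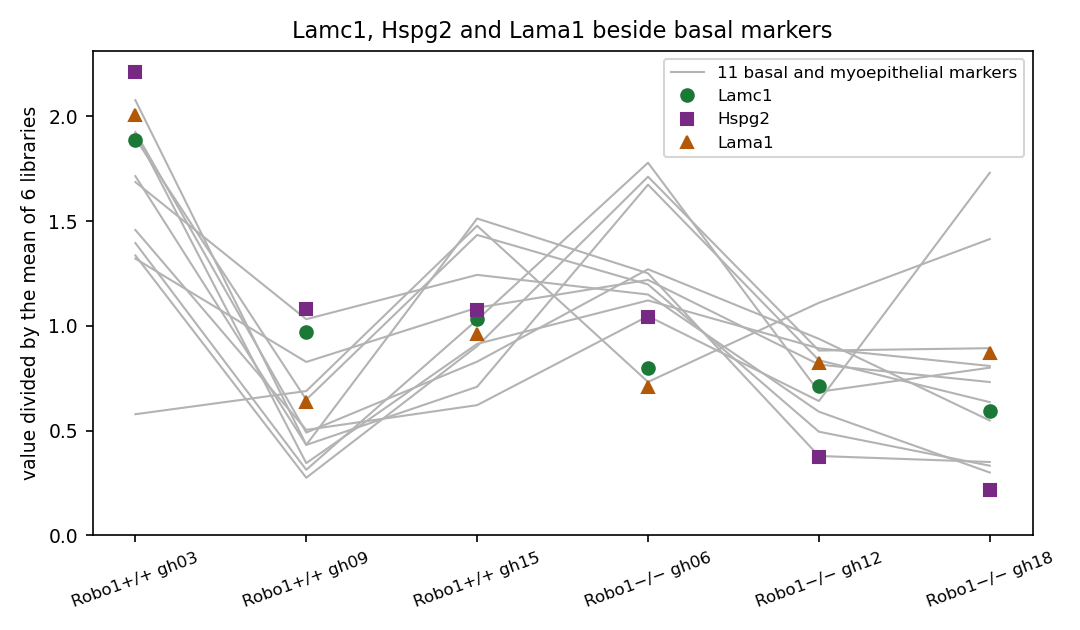
Value in each library divided by the mean of the 6 libraries (y axis) for *Lamc1*, *Hspg2* and *Lama1* (coloured points) and for 11 basal and myoepithelial marker genes (grey lines, 1 per gene, joined only to follow a gene). All 3 members were highest in gh03, as was the summed marker level of 2564 normalized reads.

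Among the receptors, *Itga8* and *Itga9* were higher in *Robo1−/−*. *Itga8* (chr2:12028259-12223547, minus strand) pairs with *Itgb1* and binds nephronectin and other RGD proteins. It had 248, 366 and 533 normalized reads in *Robo1+/+* and 689, 884 and 502 in *Robo1−/−*. Replicate gh18 was below gh15, so the genotypes overlapped. The log2 fold change was 0.88 ± 0.36 (adjusted p = 0.86, limma; unadjusted 0.043), and the exact two-sided permutation p was 0.2. Without gh18 it was 1.10 (unadjusted 0.013 by limma across all tested genes), and after the correction 0.64. It was 0.61 without gh03, 0.89 without gh09, 0.87 without gh06 and 0.69 without gh12, and in these 4 cases and after the correction it did not pass an unadjusted p of 0.05.

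*Itga9* (chr9:118515808-118810121, plus strand) pairs with *Itgb1* and binds tenascin C and osteopontin. Its reads were few, 7, 13 and 23 in the *Robo1+/+* libraries and 21, 40 and 18 in the *Robo1−/−* libraries. After scaling these were 8.91, 10.2 and 21.6 against 24.2, 36.6 and 26.3 normalized reads, so the genotypes did not overlap. Its log2 fold change was 1.12 ± 0.46 (adjusted p = 0.86, limma; unadjusted 0.046), the exact two-sided permutation p was 0.1, and the values were 1.18 without gh18 and 1.20 after the correction. The sign held without each library in turn, with values from 0.90 to 1.49, but of these only that without gh15 passed an unadjusted p of 0.05. With all 6 libraries it did not pass with DESeq2 (log2 fold change 1.10), with edgeR (1.08) or in the limma fit of all genes with at least 1 read (1.12). Per kilobase *Itga9* stood at 1.93 ± 0.99 in *Robo1+/+* and 4.13 ± 0.95 in *Robo1−/−*, beside 1986 ± 141 and 2341 ± 649 for its partner *Itgb1*. A long noncoding RNA gene, *Gm2415*, overlaps *Itga9* on the other strand, and whether the counting used strand is not given in the sources used here. The same limit holds for *Itgb4*, *Itgav*, *Itga6*, *Itga8*, *Lamc1*, *Lamb1*, *Itga10* and *Itgae*, which also overlap an annotated gene.

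**Figure D5:**
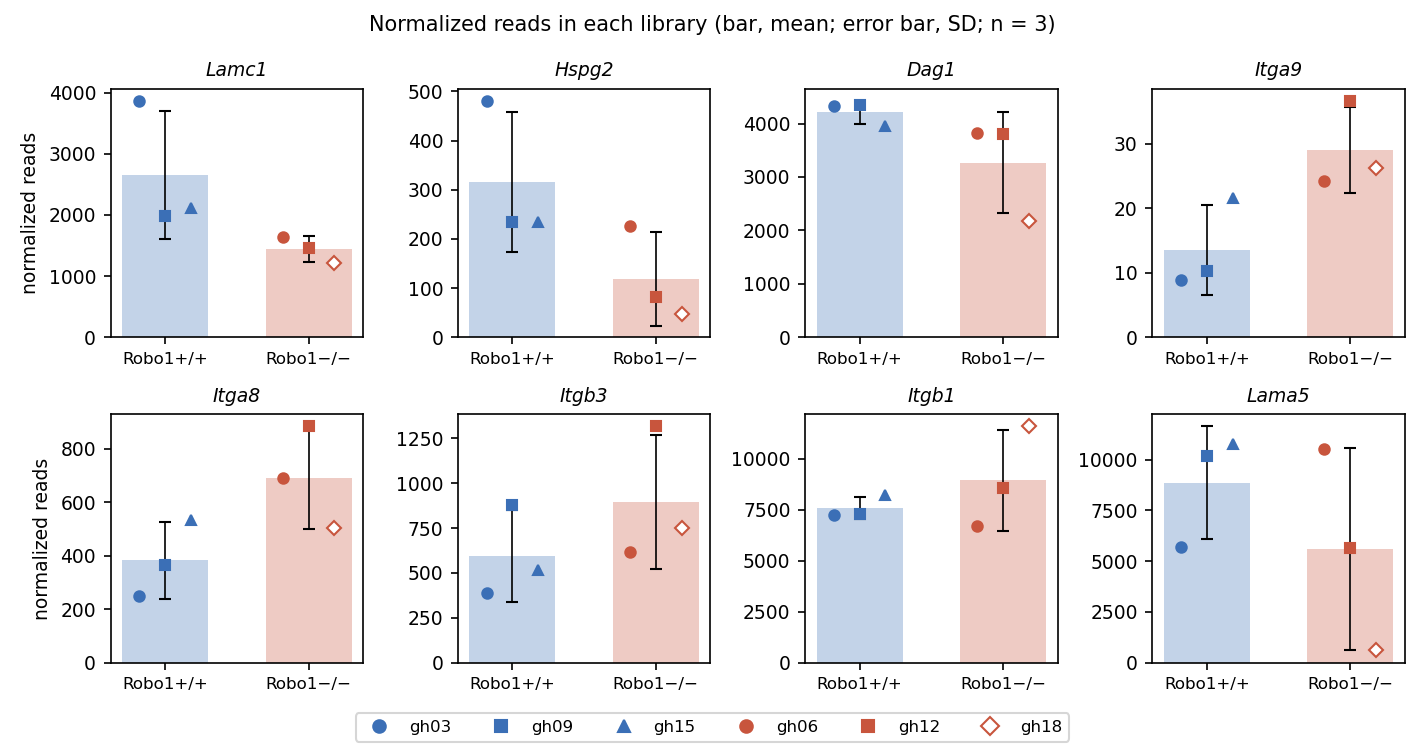
Normalized reads of 8 members in each library (points), with the mean (bar) and SD (error bar) of 3 libraries per genotype; the open diamond is replicate gh18. For *Lamc1*, *Hspg2*, *Dag1* and *Itga9* the points of the genotypes do not overlap, whereas for *Itga8*, *Itgb3*, *Itgb1* and *Lama5* they do.

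The most abundant alpha subunits differed by less than the spread between libraries. *Itga6* had 5339.8, 5054 and 6789.8 normalized reads in *Robo1+/+* and 4887, 6426 and 7209.7 in *Robo1−/−*, a log2 fold change of 0.10 ± 0.23 with a 95% interval from -0.45 to 0.65. *Itgav*, the RGD-binding subunit that pairs with *Itgb3*, *Itgb5*, *Itgb6* and *Itgb8*, had 3181, 4358 and 5819.9 against 3974, 4359 and 8765. Its log2 fold change was 0.30 ± 0.37, and without gh18, its highest library, -0.054. *Itga3* had 1504, 2069 and 2259.8 against 2001, 1712 and 296, and moved from -0.93 ± 0.70 to -0.05 without gh18.

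*Itga2*, the alpha subunit of a collagen receptor, had the opposite profile, with 271, 459 and 493 normalized reads in *Robo1+/+* and 379.8, 332 and 1370.2 in *Robo1−/−*. Its log2 fold change was 0.50 ± 0.57, and -0.15 without gh18. *Itga2b*, which pairs with *Itgb3* on platelets, had 94.2, 129 and 171 against 135, 77.9 and 16.1, and a log2 fold change of -1.18 ± 0.75. This became -0.31 without gh18 and -0.50 after the correction. Without gh06 it was -1.81, past an unadjusted p of 0.05, as were 6.42% of all tested genes. Of the 3 platelet markers with a row, *Pf4* had at most 1 read and *Gp9* at most 2 in any library. The third, *Gp1bb*, was the 1 tested and had 36.9, 14.1 and 31.0 normalized reads in *Robo1+/+* and 15.0, 12.8 and 7.30 in *Robo1−/−*. Its log2 fold change was -1.11 ± 0.51, -0.83 without gh18 and -0.084 after the correction. Its part, and that of platelets, in the difference of *Itga2b* was not tested. The other tested alpha subunits, *Itga5* (-0.56), *Itga10* (-0.39), *Itga7* (-0.28), *Itgal* (0.27) and *Itgae* (0.20), had unadjusted p over 0.05. In the same order the values were -0.0089, -0.30, 0.19, 0.98 and 0.22 without gh18. After the correction they were 0.065, -0.15, 0.35, 0.47 and 0.26. *Itgae* did not overlap, with 16.5, 16.5 and 14.1 normalized reads in *Robo1+/+* and 19.6, 17.4 and 17.5 in *Robo1−/−*. Over the 12 tested alpha subunits the median log2 fold change was 0.15, and -0.01 without gh18.

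The genes of the sort antigens had unequal spreads. *Itgb1* had 7258, 7275 and 8201 normalized reads in *Robo1+/+* and 6673, 8536 and 11579.9 in *Robo1−/−*. Its log2 fold change was 0.20 ± 0.25 with a 95% interval from -0.38 to 0.79, and it was -0.0035 without gh18. *Itgb3* (CD61), which marks luminal progenitors in the mouse, had 387, 879 and 519 normalized reads in *Robo1+/+* and 618, 1317 and 751 in *Robo1−/−*. The genotypes overlapped at gh09, and the log2 fold change was 0.60 ± 0.41 (adjusted p = 0.86, limma; 95% interval -0.36 to 1.56), 0.69 without gh18 and 0.70 after the correction. With weights per library in the limma fit it was 0.84 and passed an unadjusted p of 0.05. In that fit 11.3% of all tested genes passed, against 1.69% without weights. *Cd24a*, whose product CD24 was the third antigen of the gate, had 10675, 14373 and 14034 normalized reads in *Robo1+/+* and 21142, 20715 and 19935 in *Robo1−/−*.

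The other beta subunits overlapped between genotypes with all libraries. *Itgb5* had 1144, 1701 and 1593 normalized reads in *Robo1+/+* and 1841, 1836 and 607 in *Robo1−/−*. Without gh18, both *Robo1−/−* libraries were above all 3 *Robo1+/+* libraries. The log2 fold change was -0.20 ± 0.46 with all libraries, 0.33 without gh18 and 0.44 after the correction, so its sign depended on gh18. *Itgb4* had 1489, 2014 and 2788 against 1961, 1818 and 188, and its log2 fold change moved from -1.21 ± 0.88 to -0.10 without gh18. *Itgb6*, which with *Itgav* activates latent TGFβ, had 482, 999 and 1689 against 925, 1007 and 1841 (0.36 ± 0.49, and 0.05 without gh18). *Itgb8*, which has the same role, had 275, 335 and 243 against 312, 221 and 696 (0.37 ± 0.44, and -0.10 without gh18). The median over the 6 tested beta subunits was 0.28, and 0.02 without gh18.

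The other genes of the adhesion pathway are read against the same shares, 0.92% of all tested genes lower and 0.767% higher at an unadjusted p under 0.05. Of the genes that carry the integrin signal to the cytoskeleton, 35 of 38 were tested and none passed an unadjusted p of 0.05 in either direction. The median log2 fold change was -0.19, and -0.03 without gh18. *Fermt3*, the kindlin of blood cells, had 22.9, 24.3 and 19.7 normalized reads in *Robo1+/+* and 16.1, 10.1 and 5.84 in *Robo1−/−*. Its log2 fold change was -1.09 ± 0.46, -0.75 without gh18 and -0.44 after the correction. *Bcar1*, a focal adhesion adaptor, had the next smallest p, with a log2 fold change of -1.14 ± 0.63 and -0.41 without gh18. Of the hemidesmosome and tetraspanin partners, 6 were tested and none passed. The 2 with the smallest p were *Cd151* (-0.40 ± 0.26), a tetraspanin bound to laminin receptors, and *Plec* (-1.15 ± 0.84), which ties *Itgb4* to keratin. Without gh18 they were -0.15 and -0.12, and after the correction -0.057 and -0.20. *Plec* had 4076, 7298 and 7252 normalized reads in *Robo1+/+* and 7099, 4293 and 643 in *Robo1−/−*, low in gh18 alone as *Itgb4* was.

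Among other basement membrane components, 20 of 25 were tested, 1 was lower at an unadjusted p under 0.05 and none was higher. It was *Tinagl1*, with 1065, 759 and 1146 normalized reads in *Robo1+/+* and 715, 546 and 172 in *Robo1−/−* (-1.26 ± 0.53, and -0.64 without gh18). The median of the list was -0.25, and 0.08 without gh18, where 3 of the 20 passed an unadjusted p of 0.05 against 4.23% of all tested genes. Among integrin ligands other than the laminins, 19 of 23 were tested and *Icam1*, a ligand of *Itgal* with *Itgb2*, was the 1 past an unadjusted p of 0.05. It had 3509, 2242 and 3285 normalized reads in *Robo1+/+* and 2143, 1291 and 1399 in *Robo1−/−*, so the genotypes did not overlap (-0.91 ± 0.29, and -0.83 without gh18). The median of the ligands was -0.26, and 0.00 without gh18, where 3 of the 19 passed. *Spp1*, which encodes osteopontin, a ligand of *Itga9*, *Itgav* and *Itga8*, was not past the threshold. It had 1454, 6222 and 8081 normalized reads against 7225, 23668 and 13688, with a log2 fold change of 1.67 ± 0.71. Of other ligands named above for *Itga8* or *Itga9*, *Tnc* (tenascin C), *Npnt* (nephronectin) and *Fn1* (fibronectin) had -0.55 ± 0.32, -0.019 ± 0.36 and -1.46 ± 0.86. Over the 19 tested ligands, 13 were below 0 and 6 above it, and without gh18 9 and 10. In the dystroglycan complex and the enzymes that glycosylate it, 17 of 20 were tested and none passed, with a median of -0.08. The 2 with the smallest p were *Dtnb* (-0.46 ± 0.22) and *Sspn* (0.47 ± 0.27). Without gh18 they were -0.39 and 0.52, and after the correction -0.67 and 0.27. None of the genes on these lists passed an adjusted p of 0.05 by limma.

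The label of the cells was checked against markers. All 10 genes listed as luminal progenitor markers were tested, among them *Kit* at 4209 to 5644 and *Elf5* at 2366 to 3901 normalized reads. The list also holds genes such as *Krt8*, a marker of luminal cells in general, which cannot tell progenitors from mature luminal cells. *Cd24a* was the 1 that passed an unadjusted p of 0.05. All 7 mature luminal markers were tested too, with *Pgr*, the progesterone receptor, past that threshold at 1721, 3003 and 3394 normalized reads in *Robo1+/+* and 5481, 4124 and 3752 in *Robo1−/−*. Their summed level was 32885, 47902 and 36528 in *Robo1+/+* and 58588, 48900.0 and 49498 in *Robo1−/−*, so the genotypes did not overlap, as for *Itga9*, *Itgae* and *Cd24a*. Most of this sum was *Prlr*, the prolactin receptor, whose genotypes overlapped, and *Pgr* was the 1 marker of the 7 whose genotypes did not. Of the 7 log2 fold changes, 6 were above 0 (median 0.40), as were all 7 without gh18 (median 0.41). The median after the correction was 0.19. The part of mature luminal cells in the differences was not tested. Of the 7 endothelial markers with a row, *Cdh5* had at most 1 read in any library. *Pecam1* (CD31), the 1 tested, had 23.4 to 89.8 normalized reads and overlapped between genotypes, and the summed fibroblast markers lay between 325 and 1057 normalized reads with both genotypes overlapping.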

How the data were processed

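The deposited table holds, for each known-gene cluster, a normalized signal that the authors made by dividing its reads by 1 DESeq size factor for the library. By the methods of the study and the submitters' processing notes, 75-base reads were filtered against repeats with Bowtie and mapped to NCBI37/mm9 with TopHat. How reads were counted, and whether by strand, is not given in the sources used here. The rule for members reads symbols only, but it and the gene lists were written with earlier results of these data known. Named in full were the sort antigens, *Itga9* and *Hspg2*, the 12 members highest per kilobase, members with an unadjusted p under 0.05, and the 5 largest log2 fold changes each way.

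Every deposited value was a whole multiple of the value of 1 read in its library (100.0% whole within rounding), which gave reads counted in these genes per library of 9727191 to 17433868. A count of 3 reads was taken as the floor, and this covers counting error only. Values were tested as log2(value + 1) with limma (version 3.58.1, R 4.3.3), using a mean-variance trend and p-values adjusted after Benjamini-Hochberg over the 13692 genes kept by filterByExpr of edgeR (version 4.0.16). A fold change on this scale understates that of low genes. Each library pooled 2 animals, so p-values measure the spread between 3 such pools per genotype. For the G+C correction, the log2 deviations of a library were fitted on transcript G+C by lowess (span 0.3) and the curve was taken off. Library weights used limma's gene-by-gene method. DESeq2 (version 1.42.0) and edgeR were run on the recovered reads, and scripts were tested on simulated data. Coordinates, transcript lengths and G+C came from GENCODE M1 on NCBI37. No pair of libraries agreed within sampling noise. The values of 1 symbol are not reported here, although its rows stay in the counts and medians over the members.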

Additional observations from a re-analysis of the deposited data

How the results depend on the processing

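Besides the 6-library limma fit, in which 4 members and 231 genes passed an unadjusted p of 0.05, 3 members did with DESeq2, 2 with edgeR, 2 after the G+C correction, 1 after the correction without gh18 and 6 with library weights. With 1 library left out the count of members ranged from 0 to 4, and that of genes from 117 to 879. With every gene of at least 1 read, 415 genes (2.24%) and 5 members passed, 4 of these members lower in *Robo1−/−*. They included *Itga11* and *Itgam*, which the filter had left out. *Itga11* had 5, 2 and 8 reads in *Robo1+/+* and 1, 1 and 0 in *Robo1−/−*, and *Itgam* 4, 8 and 4 against 1, 1 and 2. The count of genes was 1548 with library weights (1 of them past an adjusted p of 0.05) and 559 after the correction without gh18. Of 304 values of the 19 members followed through these alternatives, 253 kept their sign and their side of the threshold and 23 changed sign. With TMM scaling, a mean of at least 10 and pseudocounts of 0.5 and 5, all 19 kept both. The sign changed after the G+C correction for *Itgb1* (-0.021) and *Itgb5* (0.44). It changed after the correction without gh18 for *Itgb1* (-0.037), *Itga6* (-0.044), *Itgav* (-0.093), *Itgb5* (0.39), *Itga3* (0.012), *Lamb2* (0.20), *Itgb8* (-0.15) and *Itga2* (-0.18), and with library weights for *Itgav* (-0.17), *Itgb5* (0.19), *Itgb6* (-0.27), *Itgb8* (-0.17) and *Itga2* (-0.34). With 1 library left out, the log2 fold change ranged from -0.15 to 0.87 for *Itga2*, -0.019 to 0.26 for *Itga6*, -0.054 to 0.52 for *Itgav*, -0.0035 to 0.39 for *Itgb1*, -0.47 to 0.33 for *Itgb5*, -0.12 to 0.79 for *Itgb6*, -0.10 to 0.72 for *Itgb8* and -1.77 to 0.12 for *Lamb2*. Of these changes, 7 came without gh18 and that of *Itgb6* without gh03. The causes were not tested. No paired analysis was run, because no label matches libraries across the genotypes. Whether they were prepared in pairs is not known. With 3 libraries of 2 animals per genotype, a difference smaller than the intervals given was not detectable.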
